A study of Mus musculus with 18 samples.

Results

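The genes described here encode proteins of the small (40S) ribosomal subunit, and 28 of the 20683 genes in the count table were taken as members by symbol: Rpsa, Rps2, Rps3, Rps3a1, Rps4x, Rps6, Rps7, Rps9, Rps10, Rps12, Rps13, Rps14, Rps15, Rps15a, Rps16, Rps18, Rps19, Rps20, Rps21, Rps23, Rps24, Rps25, Rps26, Rps27, Rps27a, Rps28, Rps29 and Fau. They were measured in erythroblasts, the precursors of red blood cells, isolated from fetal livers of Trp53 -/- mice of the FVB/n x C57BL/6 background. Every library therefore lacks functional Trp53 by its label, the untreated ones included. Cells grew in StemPro medium with erythropoietin (0.5 U/ml), stem cell factor (1% supernatant) and dexamethasone (1 nM), and no embryonic age is stated in the labels. Tunicamycin, which blocks N-glycosylation in the endoplasmic reticulum and was used to induce eIF2 phosphorylation, was given at 2.5 ug/ml for 1.5 h, and the other cells were left untreated. Each treatment was read in 3 libraries each of total RNA, of footprints of ribosomes frozen by cycloheximide (100 ug/ml for 5 min), and of footprints of ribosomes held at start sites by harringtonine (2 ug/ml), 18 libraries in 6 groups. No label says that the 3 libraries of a group came from different cultures or embryos, so p-values here reflect the spread between these libraries, which may be technical.

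The 40S subunit scans the mRNA, finds the start codon and reads each codon, and every one of its proteins is needed in about equal number, so that their mRNAs are usually controlled together. Most ribosomal protein mRNAs begin with a run of pyrimidines, the 5' terminal oligopyrimidine (TOP) tract, through which LARP1 and mTOR signalling adjust their translation to growth and stress. Erythroid precursors are sensitive to shortage of these proteins: in humans, variants in RPS19, RPS24, RPS26, RPS10 and RPS7 cause Diamond-Blackfan anaemia, and loss of 1 copy of RPS14 contributes to the anaemia of the 5q- syndrome.

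RNA libraries held 14.5 to 43.5 M (mega) reads under tunicamycin and 12.9 to 49 M untreated, and footprints on coding sequences (CDS) came to 4.53 to 5.09 M under tunicamycin and 6.42 to 6.65 M untreated. Harringtonine files gave reads at single positions that reached at least 20 reads over the 3 libraries of a treatment, so their totals (0.559 to 0.648 M under tunicamycin, 0.447 to 0.524 M untreated) are not sequencing depth. Trp53 still had RNA reads in every library, 1426 to 5281 under tunicamycin and 1516 to 6060 untreated, and counts per gene do not show which exons they came from. The labelled cell type fitted its markers, since all 12 erythroid markers stood at 5 or more counts per mega RNA reads (CPM), with sums of 5980 to 6200 CPM under tunicamycin and 5960 to 6210 CPM untreated. Of the 36 markers of macrophages, neutrophils and monocytes, hepatocytes, endothelium and stroma, megakaryocytes and mast cells, only Gp5 and Ms4a2 reached 5 CPM. The 6 megakaryocyte markers, among which Ppbp was at 0 in every library, summed to 94.4 to 104 CPM under tunicamycin and 113 to 119 CPM untreated. The 6 mast cell markers summed to 108 to 172 CPM under tunicamycin and 105 to 170 CPM untreated, with Ms4a2 at a mean of 139 CPM. The part of cells with these markers in the results was not tested.

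In total RNA none of the 28 members passed the test between tunicamycin and untreated cells. Together they took 3.08%, 3.34% and 2.96% of RNA reads in the 3 tunicamycin libraries and 2.97%, 3.25% and 3.30% in the 3 untreated libraries, which overlap. All 28 were tested, and 0 passed an adjusted p of 0.05 with edgeR's quasi-likelihood test (Benjamini-Hochberg over all genes), where 0.15% of 10643 genes passed. An unadjusted p under 0.05 was found for 2 members, against 1324 genes (12.4%). With the replicate number as a block, 3.85% of genes passed and 0 members, and with DESeq2 0.911% of genes and 0 members. These values are relative to the reads of each bulk library, so neither cell number nor total RNA per cell can be read from them.

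The smallest p in RNA belonged to Rps14, a platform protein near the mRNA exit. It had 1800, 2070 and 1840 CPM under tunicamycin and 2150, 2250 and 2060 CPM untreated, with a log2 change of -0.17 ± 0.08 (SE, edgeR adjusted p = 0.393; 0.0703 with the block). The lowest untreated library stood just below the highest tunicamycin library. Rps29, a small zinc-binding protein of the head, had 149, 194 and 150 CPM under tunicamycin and 62.7, 107 and 170 CPM untreated (log2 0.57 ± 0.26, edgeR adjusted p = 0.401). Its untreated libraries spread more than the tunicamycin ones, and untreated library 1 was the lowest. Rps13, a protein of the body, had 551, 617 and 521 CPM under tunicamycin and 376, 505 and 575 CPM untreated (log2 0.22 ± 0.13, edgeR adjusted p = 0.506), and untreated library 1 was again the lowest. The other 25 members lay between -0.13 and 0.20 on the log2 scale, and the median of all 28 was -0.01 against 0.00 for all genes tested. Rps27 stood apart in level: it had 1.38, 1.51 and 1.42 CPM under tunicamycin and 1.39, 1.51 and 1.47 CPM untreated, 262 reads in all, while every other member averaged above 100 CPM in both treatments.

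The start of each mRNA is shown here because the TOP tract is the feature these genes are known for. RefSeq promoter entries (GRCm38.p6, the build family of the deposited positions) existed for 24 members, with 28 annotated starts. The longest unbroken run of C or T on the gene's strand that overlapped the window from 10 bases before to 20 bases after the annotated start is in capitals below, in 30-base windows. The first 4 sequences have a run at the annotated start, that of Rps25 begins 22 bases before it, and Rps2 and Rps3a1 have short runs. Rps25, Rps18 and Rps2 are the members whose CDS footprints passed the test, and Rps3a1 the next by p.
Fau (chr19:6057937-6057966, plus strand): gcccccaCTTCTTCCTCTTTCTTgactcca
Rps10 (chr17:27635225-27635254, minus strand): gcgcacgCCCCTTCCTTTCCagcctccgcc
Rps18 (chr17:33955646-33955675, minus strand): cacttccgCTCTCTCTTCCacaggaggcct
Rps6 (chr4:86857348-86857377, minus strand): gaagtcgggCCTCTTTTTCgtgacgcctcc
Rps25 (chr9:44407689-44407718, plus strand): gggCTTCCTTTTTTTCCgacatcttagcga
Rps2 (chr17:24720053-24720082, plus strand): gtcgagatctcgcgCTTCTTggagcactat
Rps3a1 (chr3:86142649-86142678, minus strand): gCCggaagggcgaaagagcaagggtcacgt

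The run was 16 bases in Fau, 14 in Rps25, 13 in Rps10, 11 in Rps18 and 10 in Rps6, but 6 in Rps2 and 2 in Rps3a1. Runs of at least 9 bases overlapped the window around 11 of the 28 annotated starts (39.3%), those of Fau, Rps25, Rps10, Rps12, Rps18, Rps15a, Rps6, Rps24, Rps26, Rps27 and Rps9, against 11.6% of all 32851 promoter entries. Not all of them cover the start itself. The runs of Rps25 and Rps15a lie wholly before it, and those of Rps12 and Rps26 begin 8 and 3 bases after it. The annotated start may not be the one used in these cells, and a missing run says only that these letters are not in this window.

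Rps25 was the member whose CDS footprints rose under tunicamycin, and those of Rps18 and Rps2 fell. Among the 18 members with enough footprints to be tested, 1 passed as higher, where 1.78% of 9265 genes did, and 2 passed as lower, where 0.799% did. The other 15 did not pass. The members' median log2 change was -0.25, with 13 values below 0 and 5 above, while the median of all genes was 0.00. At an unadjusted p under 0.05, 9 of the 18 members were lower (against 7.65% of all genes) and 2 higher (11.1%, against 8.99%). With the replicate number as a block, 2 members passed as higher, where 522 of 9265 genes did, and 9 as lower, where 363 did. The tunicamycin libraries lay wholly below the untreated ones for 6 members (33.3%, against 11.8% of genes) and wholly above them for 2 (11.1%, against 10.1%). As a share of all CDS footprints, the 28 members took 0.716%, 0.741% and 0.667% in tunicamycin libraries and 0.726%, 0.717% and 0.809% in untreated ones, which overlap.

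**Figure D1:**
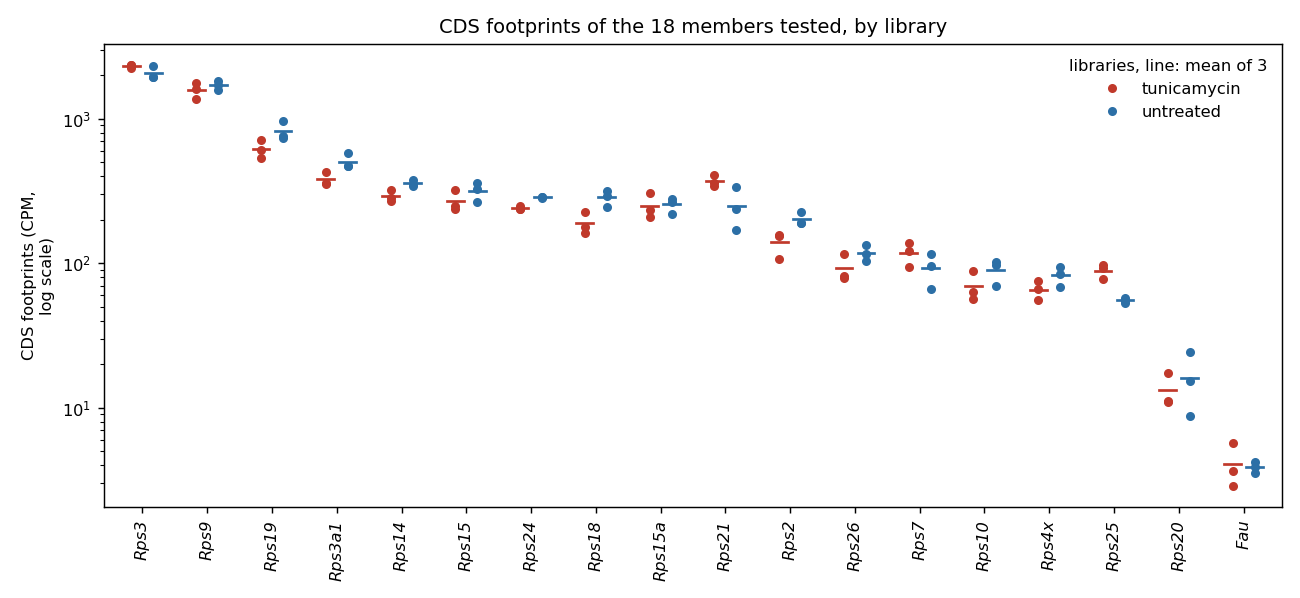
CDS footprints in CPM (log scale) in each of 3 tunicamycin (red) and 3 untreated (blue) libraries for the 18 members tested, with the mean as a line. Rps25 and Rps21 lie wholly above their untreated libraries, and Rps14, Rps18, Rps19, Rps2, Rps24 and Rps3a1 wholly below.

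In the head of the subunit, where tRNAs are held, Rps25 rose and Rps18 fell. Rps25, which sits near the exit-site tRNA and is known to be needed by several viral internal ribosome entry sites, had 78.0, 96.6 and 92.0 CPM (per mega CDS footprints of the library) under tunicamycin and 53.4, 54.8 and 57.7 untreated. All 3 tunicamycin libraries stood above the untreated ones, and the log2 change was 0.70 ± 0.10 (SE, edgeR adjusted p = 0.00214). It stayed past the threshold under each of the 12 alternatives, with adjusted p between 9.54e-08 and 0.0173. Rps18, which reaches across to the large subunit, had 178, 227 and 162 CPM under tunicamycin and 246, 317 and 294 untreated. The groups did not overlap, and the log2 change was -0.58 ± 0.12 (edgeR adjusted p = 0.0210). Without tunicamycin library 3 the adjusted p was 0.121, and without untreated library 2 it was 0.132.

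Rps19, the head protein most often affected in Diamond-Blackfan anaemia in humans, had 607, 708 and 532 CPM under tunicamycin and 739, 755 and 963 untreated. The groups were apart by little, and the change of -0.40 ± 0.11 did not pass (edgeR adjusted p = 0.0814; DESeq2 0.0465). DESeq2 called 2.53% of all genes. Rps15 (-0.22 ± 0.12), Rps20 (-0.28 ± 0.29) and Rps10 (-0.36 ± 0.16), also of the head, had adjusted p of 0.373, 0.690 and 0.255. The libraries of both groups overlapped for each of these 3 genes. With the replicate block the edgeR adjusted p was 0.0137 for Rps19 and 0.021 for Rps10, but 0.08 for Rps15 and 0.392 for Rps20.

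At the entrance of the mRNA channel, lined by Rps2, Rps3 and Rps9, Rps2 fell and the others did not pass. Rps2 had 158, 155 and 107 CPM under tunicamycin and 227, 191 and 191 untreated. The highest tunicamycin library was below the lowest untreated one, with a log2 change of -0.53 ± 0.13 (edgeR adjusted p = 0.0481). Rps2 lay at the threshold: the adjusted p was 0.0762 without tunicamycin library 2, 0.207 without tunicamycin library 3, 0.143, 0.133 and 0.0608 without untreated libraries 1, 2 and 3, and 0.0565 with the stricter filter. Rps3 had 2230, 2350 and 2340 CPM under tunicamycin and 1930, 1950 and 2320 untreated (log2 0.17 ± 0.09, edgeR adjusted p = 0.342). Rps9 had 1760, 1600 and 1370 CPM under tunicamycin and 1810, 1590 and 1710 CPM untreated (log2 -0.10 ± 0.10, edgeR adjusted p = 0.685), and for both genes the groups overlapped.

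On the platform and at the mRNA exit none passed with edgeR without the replicate block. With the block, the edgeR adjusted p was 0.00553 for Rps3a1, 0.0147 for Rps14, 0.000698 for Rps21 and 0.0345 for Rps26. Rps3a1 had 431, 361 and 351 CPM under tunicamycin and 470, 469 and 576 untreated (log2 -0.39 ± 0.10, edgeR adjusted p = 0.0570; DESeq2 0.0287). Rps14 had 282, 323 and 268 under tunicamycin and 344, 353 and 374 untreated (-0.28 ± 0.09, edgeR adjusted p = 0.116). Both genes had all tunicamycin libraries below the untreated ones. Rps21, a small protein next to Rpsa, had 341, 358 and 406 under tunicamycin and 238, 169 and 338 untreated, a log2 value of 0.59 ± 0.16 (edgeR adjusted p = 0.0726). Its groups were separated by the gap between the lowest tunicamycin and the highest untreated library, 341 against 338, and the untreated libraries were the more spread. Rps26, which contacts the mRNA as it leaves the subunit, had a value of -0.35 ± 0.13 (edgeR adjusted p = 0.187).

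In the body, Rps24 had 239, 239 and 249 CPM under tunicamycin and 281, 289 and 287 untreated, apart in every library but with a small change of -0.22 ± 0.08 (edgeR adjusted p = 0.163). Rps4x (-0.31 ± 0.13), Rps7 (0.36 ± 0.17) and Rps15a (-0.02 ± 0.13) had overlapping groups and adjusted p of 0.232, 0.311 and 0.963. With the replicate block the edgeR adjusted p was 0.0346 for Rps24 and 0.0478 for Rps4x, but 0.106 for Rps7 and 0.851 for Rps15a. Fau, whose protein is made as a fusion to a ubiquitin-like sequence, had between 2.87 and 5.70 CPM under tunicamycin and between 3.55 and 4.21 untreated (0.09 ± 0.28, edgeR adjusted p = 0.919).

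Translational efficiency, tested as the change of CDS footprints relative to the change of RNA in 1 model over 12 libraries, gave the same gene as the single call. Rps25 rose by a log2 value of 0.71 ± 0.12 (edgeR adjusted p = 0.00995), with RNA of 1340, 1350 and 1200 CPM under tunicamycin and 1260, 1310 and 1390 CPM untreated. Its RNA libraries overlapped, while its footprint libraries did not. Of 18 members tested 1 passed as higher, where 1.04% of 9218 genes did, and 0 passed as lower, where 0.445% did. Of the 18, 2 above and 6 below 0 stood at an unadjusted p under 0.05 (44.4%, against 15.4% of all genes). The median over the 18 was -0.22, against -0.01 for all genes. With the replicate block, 2 members passed as higher, where 432 of 9218 genes did, and 4 as lower, where 407 did.

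The next by p were Rps18 (-0.60 ± 0.18, edgeR adjusted p = 0.0935) and Rps3a1 (-0.49 ± 0.15, 0.102). DESeq2, with 4.21% of all genes called, called both as lower, at adjusted p of 0.0483 and 0.0440. Rps18 had RNA of 1220, 1230 and 999 CPM under tunicamycin and 1040, 1120 and 1290 CPM untreated, and Rps3a1 had 1240, 1530 and 1420 CPM under tunicamycin and 1190, 1440 and 1330 CPM untreated. The RNA groups of both genes overlapped. The 13 negative and 5 positive values of translational efficiency had the same signs as those of CDS footprints in the plot of log2 changes, and they share those footprint libraries.

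**Figure D2:**
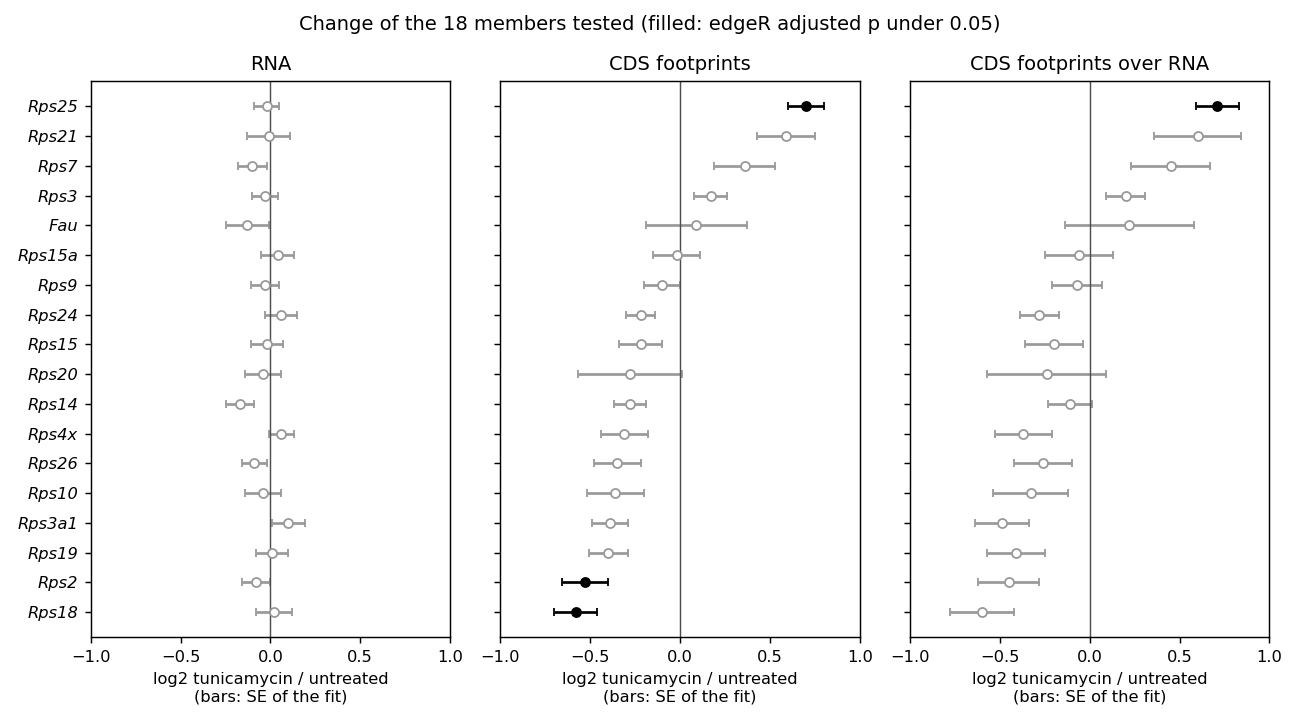
Log2 change, tunicamycin over untreated, of RNA, CDS footprints and CDS footprints over RNA for the 18 members tested, with the SE of the fit as bars and filled points for an edgeR adjusted p under 0.05. RNA values lie close to 0, footprint values run between -0.58 and 0.70, and the filled points are Rps25 in the middle and right panels and Rps18 and Rps2 in the middle one.

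Footprints on the CDS were few relative to RNA for many members in both treatments. The ratio of CDS footprint CPM to RNA CPM had a median of 0.0634 under tunicamycin and 0.0695 untreated over the 27 members with at least 100 CPM of RNA. Over all 2625 genes at that level it was 0.877 under tunicamycin and 0.889 untreated. A ratio under 0.02 was found in 11 of the 27 members (40.7%) in each treatment, against 3.01% of genes under tunicamycin and 3.16% untreated. They were Rpsa, the subunit protein also known as the laminin receptor, Rps27a, which is made fused to ubiquitin, Rps12, Rps23, Rps16, Rps13, Rps6, Rps29, Fau, Rps28 and Rps20. The ratio sets 2 measures of 1 gene side by side and removes most of its length, but not the share of the transcript that is coding. Among the large subunit protein genes the same held for 26 of 44 (59.1%) untreated.

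**Figure D3:**
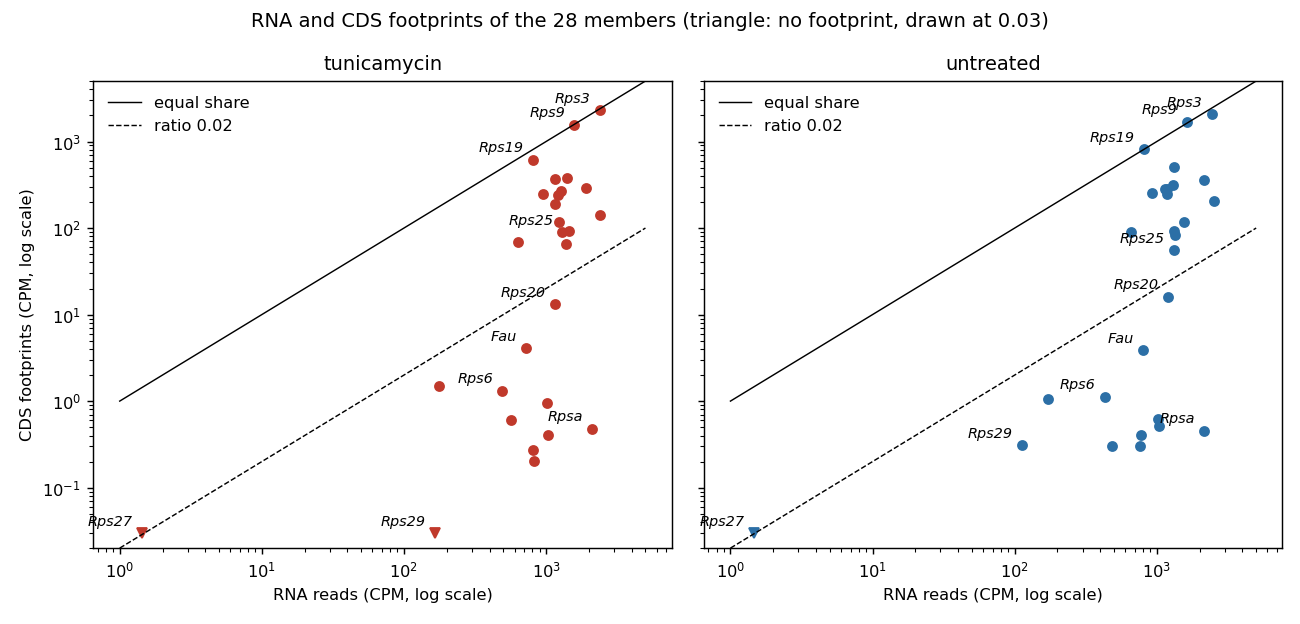
Mean CDS footprint CPM against mean RNA CPM (log scales) for the 28 members under tunicamycin (left) and untreated (right), with lines at equal share and at a ratio of 0.02. Rps3, Rps9 and Rps19 lie at the equal-share line, 11 members with over 100 CPM of RNA lie under the dashed line, and triangles mark genes with no footprint.

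Rpsa illustrates the low end. It had 2030, 2260 and 2020 CPM of RNA under tunicamycin and 2000, 2260 and 2160 CPM untreated, but 16 CDS footprints over all 6 cycloheximide libraries, a ratio of 0.000228 under tunicamycin and 0.000214 untreated. Rps6, the substrate of S6 kinase that gave that enzyme its name, had 83312 RNA reads and 41 CDS footprints over 6 libraries each, yet 66419 reads at harringtonine positions. Rps29 had 0 CDS footprints in the 3 tunicamycin libraries, which allows up to 0.206 CPM for counting error alone, and 0.150, 0.463 and 0.312 CPM untreated. Rps27 had 0 in all 6 libraries, which allows up to 0.0879 CPM. At the other end, the ratio was 0.966 under tunicamycin and 0.846 untreated for Rps3, 0.993 under tunicamycin and 1.04 untreated for Rps9, and 0.758 under tunicamycin and 1.01 untreated for Rps19.

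Ribosomal protein genes have many processed copies elsewhere in the genome. RefSeq names 109 pseudogenes after 21 of the members, among them 23 for Rps12, 13 for Rps19, and 12 each for Rpsa and Rps2, while Rps3, Rps9, Rps3a1, Rps14, Rps20, Rps21 and Rps28 have none so named. No label states how reads that match several places were counted, so the levels of members with copies are uncertain, and the part of such reads in the low ratios was not tested.

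Footprints on the 5' leader rose relative to the CDS in Rps24, Rps14, Rps19, Rps9, Rps3 and Rps20. Of the 12 members with enough leader and CDS footprints, 6 passed as higher, where 64.3% of 4417 genes did, and 0 passed as lower, where 0.0679% did. At an unadjusted p under 0.05 there were 6 of the 12 higher and 0 lower, against 69.6% of all genes in either direction. DESeq2 also called 6 higher and 0 lower, where it called 52% of all genes. The members' median was 0.67 on the log2 scale and that of all genes 0.89. Of the 12, 7 lay below the median of all genes and 5 above it. No test of that difference was made. Over all genes the leader held 7.86%, 7.94% and 10.4% of leader and CDS footprints under tunicamycin and 5.16%, 4.07% and 5.47% untreated, so a rise of the members' share is the general behaviour of these libraries.

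**Figure D4:**
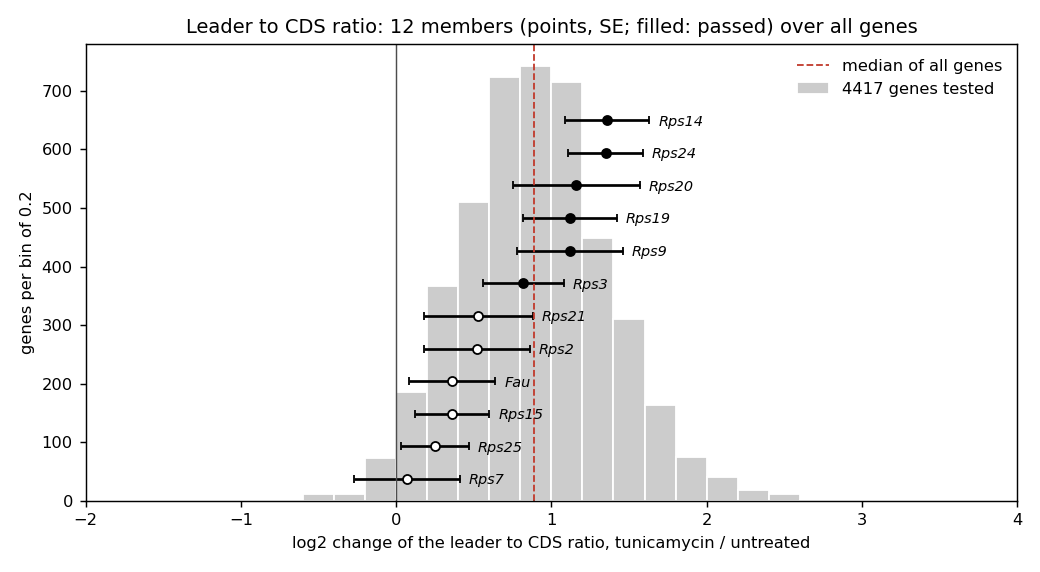
Log2 change of the leader to CDS ratio, tunicamycin over untreated: grey bars count the 4417 genes tested, in bins of 0.2, and points with SE show the 12 members, filled where the edgeR adjusted p was under 0.05. The dashed line is the median of all genes, 0.89, and the 6 filled members lie between 0.82 and 1.36.

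Rps24 and Rps14 had the smallest p. The leader of Rps24 held 15.9%, 15.7% and 18.9% of its leader and CDS footprints under tunicamycin and 6.88%, 6.31% and 8.96% untreated (log2 of the ratio 1.35 ± 0.24, edgeR adjusted p = 0.00112). That of Rps14 held 9.09%, 8.77% and 11.6% under tunicamycin and 4.83%, 2.76% and 4.69% untreated (1.36 ± 0.27, edgeR adjusted p = 0.00168). In both genes every tunicamycin library lay above every untreated one.

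In Rps19 the leader share was small, 0.855%, 0.866% and 1.10% under tunicamycin and 0.405%, 0.468% and 0.419% untreated (1.12 ± 0.30, edgeR adjusted p = 0.00650). Rps9 had 0.457%, 0.740% and 0.643% under tunicamycin and 0.431%, 0.184% and 0.237% untreated (1.12 ± 0.34, adjusted p = 0.0134; 0.0506 without tunicamycin library 2). Rps3 had 5.82%, 5.87% and 8.19% under tunicamycin and 3.96%, 2.96% and 4.73% untreated (0.82 ± 0.26, adjusted p = 0.0161; 0.0718 without tunicamycin library 3). The groups did not overlap in any of these 3 genes. Rps20 had most of its footprints on the leader, 83.3%, 76.1% and 83.7% under tunicamycin and 80.7%, 47.0% and 68.1% untreated, with overlapping groups. Its ratio passed (1.16 ± 0.41, edgeR adjusted p = 0.0256), but not without tunicamycin library 3 (0.0849) or without untreated library 2 (0.140).

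Rps25, the gene whose CDS footprints rose, had 41.5, 58.7 and 45.8 leader footprints per mega CDS footprints (CPM) under tunicamycin and 28.3, 22.7 and 24.9 untreated. Leader and CDS values were thus both higher in every tunicamycin library, and the ratio did not pass (log2 0.25 ± 0.22, edgeR adjusted p = 0.307). On this scale the leader values of Rps3, Rps6, Rps9, Rps14, Rps16, Rps19, Rps20, Rps21, Rps24 and Rps27a were also higher in every tunicamycin library. Over all genes the leader share was likewise higher in every tunicamycin library, 7.86% to 10.4% against 4.07% to 5.47% untreated. How many of all genes were separated in this way was not counted, so the separation is not read as a trait of these members. The leader share of Rps25 was 34.7%, 37.8% and 33.2% under tunicamycin and 34.6%, 29.3% and 30.2% untreated. Rps7 (0.07 ± 0.34), Rps15 (0.36 ± 0.24), Fau (0.36 ± 0.28), Rps2 (0.52 ± 0.34) and Rps21 (0.53 ± 0.35) did not pass either, with adjusted p between 0.176 and 0.860. No label states how footprints were assigned where transcripts of a gene differ in their leader.

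On the 3' UTR the footprints of 3 members could be tested against the CDS, and 0 passed with edgeR, where 0.449% of 2004 genes did. At an unadjusted p under 0.05 there were 2 of the 3 (66.7%, against 9.63% of genes), and DESeq2 called 0. Rps26 had 3.43, 5.96 and 2.95 CPM on its 3' UTR under tunicamycin and 1.95, 1.08 and 2.81 untreated, 97 reads in all (log2 of the ratio 1.42 ± 0.33, edgeR adjusted p = 0.0957). Rps15a had 18.3, 25.8 and 16.7 under tunicamycin and 26.6, 35.0 and 26.0 untreated (-0.49 ± 0.23, adjusted p = 0.515), and Rps14 had 9.07, 9.71 and 6.10 under tunicamycin and 15, 9.42 and 13.6 untreated (-0.32 ± 0.24, adjusted p = 0.733). The groups of Rps26 and Rps15a were apart by less than 1 CPM, and those of Rps14 overlapped.

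All 28 members had harringtonine reads, at 73 of the 9025 deposited positions, and 0 of the members passed between treatments. The background was 0.0272% of 3681 genes called. At an unadjusted p under 0.05 there were 3 members, all lower (10.7%, against 3.61% of all genes), and DESeq2 called 0. The members' median was -0.21, with 23 values below 0 and 5 above, against -0.01 for all genes. The groups did not overlap for Rps12 and Rps19, which were lower (7.14% of members, against 3.86% of genes), and for Rps15, which was higher (3.57%, against 5.22%).

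Rps19 had 2160, 2860 and 2340 CPM at kept positions under tunicamycin and 3470, 4760 and 3590 untreated (log2 -0.70 ± 0.21, edgeR adjusted p = 0.998). Rps12, a protein of the beak, had 23.1, 26.9 and 23.7 under tunicamycin and 42.0, 53.7 and 62.3 untreated (-1.10 ± 0.34, edgeR adjusted p = 0.998), from 120 reads in all. Rps15a had 5370, 7200 and 3060 under tunicamycin and 11800, 6770 and 8170 untreated (-0.79 ± 0.28, edgeR adjusted p = 0.998), with overlapping groups. Rps25 had 412, 183 and 98.2 under tunicamycin and 367, 235 and 282 untreated, a spread wider than the difference (-0.36 ± 0.39).

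**Figure D5:**
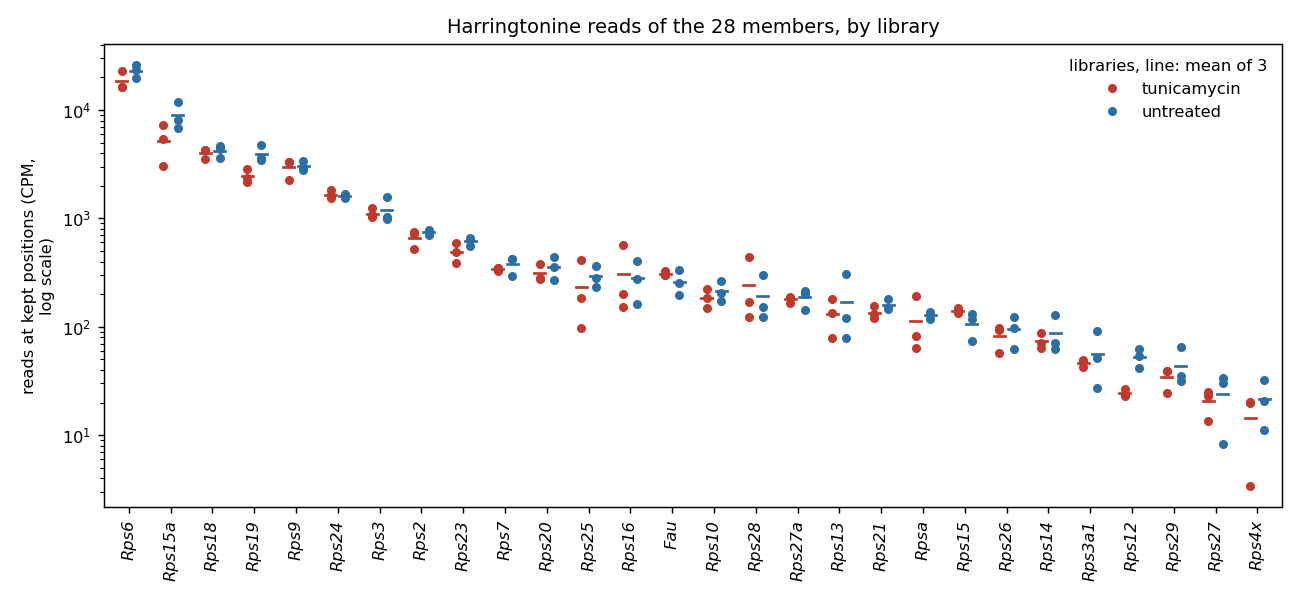
Harringtonine reads in CPM at kept positions (log scale) in each of 3 tunicamycin (red) and 3 untreated (blue) libraries for the 28 members, with the mean as a line. Rps6 is at the left with 16300 to 22700 under tunicamycin and 19800 to 26000 untreated, and Rps12 and Rps19 are the members whose tunicamycin libraries lie wholly below.

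Rps6 alone gave 45.8% of the members' harringtonine reads. It had 16400, 22700 and 16300 CPM under tunicamycin and 23300, 19800 and 26000 untreated (log2 -0.33 ± 0.18, edgeR adjusted p = 0.998). They fell on neighbouring positions of chromosome 4, 86857335 with 80.4% of the gene's reads under tunicamycin and 79.1% untreated, and 86857334 with the rest. Rps18 had 1 position, 33955632 on chromosome 17, with 3520, 4280 and 4320 CPM under tunicamycin and 3610, 4660 and 4370 untreated, which overlap (-0.07 ± 0.19), although its CDS footprints fell. The start codon contexts of these genes are shown with the first ATG of the RefSeq entry in capitals, because the positions can be read against it.
Rps6 (chr4:86857322-86857348, minus strand): ccaggcgctcggctgtgtcaagATGaa
Rps18 (chr17:33955616-33955642, minus strand): cgccgccgtctgtgccgccgccATGgt

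The Rps18 position lay 12 bases before the A of that ATG, and the Rps6 positions 9 and 8 bases before it. No label or header states which base of a read the deposited position marks. Over 435 positions of 345 genes with an ATG in the first 50 bases of the entry and a position within 20 bases of it, the most frequent distances were 13 bases before (15.6% of positions) and 12 bases before (13.1%).

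Of single positions, 0 of 9025 (0%) passed with edgeR, 444 had an unadjusted p under 0.05 and DESeq2 called 1, in no member. Of the members' 73 positions, 7 had an unadjusted p under 0.05. The smallest p among members belonged to a position of Rps19 on chromosome 7 (24885141), with 1690, 2270 and 2020 CPM under tunicamycin and 3000, 4250 and 3150 untreated (-0.81 ± 0.23, edgeR adjusted p = 0.934). The other position of Rps19 (24884655) had 474, 584 and 317 under tunicamycin and 475, 513 and 432 untreated (-0.06 ± 0.27). The share of the first in the gene's reads was thus 81.3% under tunicamycin and 87.9% untreated.

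The next positions were in Rps15 and Rps3 and had the opposite sign. In Rps15, position 80292847 of chromosome 10 had 91.0, 62.7 and 96.5 CPM under tunicamycin and 36.3, 17.9 and 43.6 untreated (1.33 ± 0.39, edgeR adjusted p = 0.934), 59.2% of the gene's reads under tunicamycin and 30.4% untreated. In Rps3, position 99482649 of chromosome 7 had 130, 98.5 and 249 under tunicamycin and 53.4, 82.9 and 54.0 untreated (1.31 ± 0.38, edgeR adjusted p = 0.934), 14.4% of its reads under tunicamycin and 5.29% untreated. At both positions all tunicamycin libraries were higher, from 199 and 377 reads in all.

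Other genes of the pathway were counted beside the members. In CDS footprints, 2 of 27 tested large subunit protein genes rose, Rpl41 (log2 1.10 ± 0.18, edgeR adjusted p = 0.00472) and Rplp1 of the stalk (0.65 ± 0.13, adjusted p = 0.0168). Rpl37a fell (-0.64 ± 0.16, adjusted p = 0.0447), and 24 did not pass. Their median was -0.12, and 11 passed with the replicate block, where 885 of 9265 genes did. Without the block 1.78% of all genes passed as higher and 0.799% as lower. In RNA 0 of 46 passed with edgeR or DESeq2, 1 stood at an unadjusted p under 0.05, and 1 passed with the replicate block (Rpl38). Over all genes 12.4% stood at an unadjusted p under 0.05 in RNA, and 3.85% passed with the block. In translational efficiency Rplp1 (0.73 ± 0.17, edgeR adjusted p = 0.0409) and Rpl41 (0.98 ± 0.23, adjusted p = 0.0452) rose among 26, where 1.04% of 9218 genes did.

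The list of factors that assemble the 40S subunit in the nucleolus and cytoplasm also holds Lsg1, a factor of the large subunit. Without the replicate block, none of its 40 tested genes passed with edgeR in RNA, CDS footprints or translational efficiency. In RNA their median was 0.11, 16 stood at an unadjusted p under 0.05, DESeq2 called 6, and 11 passed with the replicate block, among them Pdcd11 (0.30 ± 0.06 without the block, edgeR adjusted p = 0.0970), Mphosph10 (0.31 ± 0.06, 0.0993) and Riok2 (0.24 ± 0.06, 0.194). Over all genes tested in RNA these 3 shares were 12.4%, 0.911% and 3.85%. In CDS footprints 5 and in translational efficiency 6 stood at an unadjusted p under 0.05, and DESeq2 called 1 in each. With the block, 3 passed in CDS footprints and 2 in translational efficiency. Over all genes, 16.6% in CDS footprints and 15.4% in translational efficiency stood at an unadjusted p under 0.05. DESeq2 called 2.53% and 4.21% of genes, and with the block 885 of 9265 and 839 of 9218 passed. The smallest p in CDS footprints was that of the snoRNP protein gene Nop56 (0.34 ± 0.09, edgeR adjusted p = 0.0678). In the leader to CDS ratio, 19 of 23 passed as higher, where 64.3% of 4417 genes did. The median of the 23 was 0.99 on the log2 scale, against 0.89 for all genes. Among the 17 genes of TOP binding and S6 kinase signalling, 0 passed in RNA and 1 in CDS footprints without the replicate block. Over all genes 0.15% passed in RNA and 0.799% passed as lower in CDS footprints. In RNA 2 stood at an unadjusted p under 0.05, DESeq2 called 1, and Ddit4 and Sesn2, both stress-induced inhibitors of mTOR signalling, passed with the block (0.64 ± 0.12 and 0.46 ± 0.14 without it). The gene in CDS footprints was Eif4ebp2, a repressor of the cap-binding protein eIF4E, which fell by 0.45 on the log2 scale (± 0.11, edgeR adjusted p = 0.0422). Larp1, the TOP-binding repressor, had a value of -0.36 ± 0.14 (edgeR adjusted p = 0.194) and passed with the block. In the leader to CDS ratio 4 of the 9 tested passed as higher, where 64.3% of 4417 genes did.

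Among small subunit genes that are not members, Rps27l, a paralog of Rps27 known as a p53 target, rose in CDS footprints (0.49 ± 0.10, edgeR adjusted p = 0.0155). It also rose in translational efficiency (0.55 ± 0.13, edgeR adjusted p = 0.0390). In harringtonine reads 0 genes passed with edgeR in any of these 4 lists, of 41, 25, 5 and 7 tested. DESeq2 called 0, and 7, 1, 0 and 1 of them had an unadjusted p under 0.05, against 3.61% of all genes.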

How the data were processed

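The authors deposited whole-number read counts: RNA reads per gene, cycloheximide footprints per leader, CDS and 3' UTR, and harringtonine reads at single positions. The submitters' processing notes name STAR, HTSeq and edgeR, without versions or options, and the builds mm10 and GRCm38. All 28 members were found, on 84 feature lines, and each gene's RNA count was used once. Every count column matched a sample or group. Harringtonine columns were matched to a treatment only, since their names are also labels of RNA samples.

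All genes were fitted with edgeR 4.0.16 (R 4.3.3), with filterByExpr (counts of at least 10, totals of at least 15), TMM factors, quasi-likelihood test, Benjamini-Hochberg adjustment, passing under 0.05. TMM sets the typical gene near 0. Ratios were interaction terms, with library terms for leader and 3' UTR, and both features had to pass the filter. Harringtonine counts were sums of a gene's positions. CPM values are counts per mega reads of the RNA total, of the library's CDS footprint total for every footprint feature, or of the total at kept positions with a gene. DESeq2 1.42.0, other scalings and filters, a replicate block and leaving out each library were tried. On simulated counts, RNA (10656 genes) recovered 28% of 1.5-fold changes, CDS footprints (9245 genes) 19% and translational efficiency (9204 genes) 0.502%. The leader to CDS ratio recovered 2%, the 3' UTR to CDS ratio 3.02% and harringtonine reads 7.5%. At 3-fold the first 3 shares were 99.5% (10657 genes), 99% (9257 genes) and 99% (9203 genes), and the others 98%, 96.5% and 99.5%. These counts had the same dispersion for every gene, with changes in randomly drawn genes of any level. The shares are therefore not the power for the members, whose real spread differs.

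RNA libraries of the same number deviated together from their group means (r of 0.42, 0.31 and 0.19 over 10643 genes). Tunicamycin library 3, however, correlated about equally with untreated libraries 3 (0.1908) and 2 (0.1905). In CDS footprints the same-numbered pairs gave 0.35, 0.09 and 0.28. A replicate block was fitted as an alternative in every comparison but those of harringtonine. Members, gene lists and tests were chosen with earlier results of these data known. Per-library values were given for members that passed, the 3 of smallest p in each comparison, and others a result turns on, chosen after their values were seen. Planned levels per coding length were not computed, since coding lengths were not used here, so levels were not ranked between genes. CDS footprint results of small subunit genes outside the members, other than that of Rps27l, are not reported here. Intervals for a count of 0 allow 3 counts and cover counting error only.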

Additional observations from a re-analysis of the deposited data

How the results depend on the processing

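Rps25 stayed past the threshold as higher in CDS footprints and in translational efficiency under each alternative run for them, 12 and 18 in all. Of 1383 single-gene values recomputed, 1339 kept their side of the threshold, 13 lost a call, 31 gained one and 0 reversed. With no filter on low counts, 1 member was called higher in RNA (Rps29), where 92 of 14905 genes were. In CDS footprints 3 of 27 members were higher and 6 lower, where 358 and 215 of 12812 genes were. In the leader to CDS ratio 8 of 25 were higher (adding Rps18 and Rps4x), where 3195 of 9746 genes were. In the 3' UTR to CDS ratio 1 of 13 was higher (Rps26), where 23 of 9010 genes were. With the stricter filter, 1 of 17 members was lower in CDS footprints, where 60 of 7354 genes were. In the leader to CDS ratio 6 rather than 12 members could be tested, and 3 were higher, where 952 of 1355 genes were. DESeq2 called 4 members lower in CDS footprints (adding Rps19 and Rps3a1), where it called 79 of 9265 genes lower. In translational efficiency it called 2 lower, where it called 178 of 9218 genes lower. With the replicate block, members called were 2 higher (adding Rps21) and 9 lower in CDS footprints (adding Rps3a1, Rps14, Rps26, Rps19, Rps10, Rps24 and Rps4x) and 2 higher (adding Rps21) and 4 lower in translational efficiency (Rps18, Rps2, Rps3a1 and Rps4x). The block changed no other call of members, and genes called under it were 885 of 9265 in CDS footprints, 839 in translational efficiency and 14 in the 3' UTR to CDS ratio. Same-numbered CDS libraries correlated in their deviations at 0.35, 0.09 and 0.28, and each library correlated best with its own number, a hint from the data and not from the design. No paired analysis was possible for harringtonine because its column names carry a number but are also labels of RNA samples, so no column was tied to a numbered harringtonine sample. Leaving out 1 library gave 1 to 2 higher and 0 to 3 lower members in CDS footprints, 1 to 2 higher and 0 to 1 lower in translational efficiency, and 4 to 6 higher in the leader to CDS ratio. Genes called at large ranged from 3 to 26 in RNA, 58 to 431 in CDS footprints, 23 to 317 in translational efficiency, 1786 to 2831 in the leader to CDS ratio, 0 to 27 in the 3' UTR to CDS ratio and 0 to 2 in harringtonine reads. Genes called with no filter were 122 in RNA, 573 in CDS footprints and 31 in the 3' UTR to CDS ratio. The stricter filter gave 954 in the leader to CDS ratio and 0 in the 3' UTR to CDS ratio, and DESeq2 gave 97 in RNA, 388 in translational efficiency and 2 in harringtonine reads. Single harringtonine positions, an alternative chosen after seeing the data, gave 0 members with edgeR and with DESeq2. The cause of these differences was not tested. The 10 members under the filter in CDS footprints had at most 43 footprints each over 6 libraries, too few to test.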
